A study of Mus musculus with 12 samples.

Results

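The 9 genes described here are transcripts of maturing red cells: Slc4a1, Aqp1, Rhag, Ermap, Tfrc, Car1, Car2, Blvrb and Hemgn. They were taken by name from the 54532 rows of the deposited table of 12 libraries. The rule used no measured value, but the genes were chosen with earlier results of these data known. The label under which they were collected names membrane proteins and enzymes. Slc4a1, Aqp1, Rhag, Ermap and Tfrc encode membrane proteins and Car1, Car2 and Blvrb encode enzymes, while Hemgn encodes a nuclear protein and belongs to neither class.

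The libraries came from Lin-cKit+ cells, the haematopoietic stem and progenitor compartment, sorted from fresh mouse bone marrow. Wild-type (WT) mice were Dnmt3a+/+ and mutant (RH) mice were heterozygous for the Dnmt3a change R878H. The gene encodes an enzyme that places new methyl groups on DNA. The mutant allele is conditional, named Dnmt3afl-R878H/+ in the labels, and gene counts cannot show it, so they do not check the genotype. Both genotypes were C57BL/6 and carried the Mx1-cre transgene, in which an interferon-inducible promoter drives Cre. Cre in this line is active in haematopoietic cells and also in other tissues. Vehicle (VEH) or metformin (MET), a biguanide that inhibits respiratory complex I, was given for 1 month in an in vivo competition experiment. There were 3 libraries of WT cells and 3 of RH cells under each treatment. Per the labels a treatment group had 2 animals, and which library came from which animal is not stated, so every p-value measures the spread between libraries, which may be technical. The sources used here do not say how Cre was induced or how the competing cells were told apart.

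As background, a progenitor committed to the red cell lineage first increases iron import and then fills its membrane with carriers for anions, gases and water. Carbonic anhydrases in its cytoplasm interconvert carbon dioxide and bicarbonate, and the anion exchanger moves that bicarbonate across the membrane. The transcription factors GATA1 and KLF1 drive many genes of this programme. In a Lin-cKit+ sort, such transcripts are known from megakaryocyte-erythroid and early erythroid progenitors.

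Total counts per library ran from 13359583 to 21938003, and 1 CPM (counts scaled by library size with TMM factors) stood for 8.37 to 24.8 reads. In WT MET 2 and RH VEH 2, 33.3% and 40.8% of counts came from the mitochondrial genome, against 1.57% to 4.33% in the other 10 libraries. Their summed level of 16 granulocyte genes was also the lowest, at 1547 and 1649 CPM against 3735 to 8072 CPM elsewhere. For a number of results, values without these libraries are given as well. The other results rest on all 12 libraries. The libraries form 2 rounds, 6 that also stand in a second, smaller deposited table (round 1) and 6 that do not (round 2). Kit, the gene of the sorted receptor, stood at 118 to 200 CPM in the 12 libraries. Summed levels of the 10 B cell genes (21.5 to 67.3 CPM) and the 15 T and NK cell genes (28.9 to 123 CPM) were low, and no listed gene of either type was at 0 in every library. All 9 genes passed the filter on low counts, and together they took 0.946% to 1.23% of the counts outside the mitochondrial genome.

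The sequences shown are from promoters of Rhag and Ermap and mark letters that GATA factors are known to bind. RefSeq promoter windows of 300 bases (250 before and 50 after an annotated start, GRCm38.p6) were held for 6 of the 9 genes, in 8 windows. Car1, Car2 and Slc4a1 were not among them. The letters TGATAA were searched on both strands and occurred in a window of Rhag, of Ermap and of Hemgn. They occur in 9.05% of all 32851 windows of that length. In the stretches below, written 5′ to 3′ along the gene's strand, capitals mark TTATCA, the reverse complement of TGATAA. The first lies at chr17:40811091-40811125 on the plus strand, directly before the first annotated base of the gene, and the second at chr4:119190030-119190089 on the minus strand.
Rhag: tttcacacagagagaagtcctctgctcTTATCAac
Ermap: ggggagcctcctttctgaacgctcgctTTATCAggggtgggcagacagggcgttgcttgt

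The match began 31 bases before the RefSeq start of Rhag and 67 bases before that of Ermap. In Hemgn it lay 13 to 8 bases before a RefSeq start that is 9323 bases inside the gene as the deposited table gives it, and the same window also held AGATAA, which occurs in 11.2% of windows. The windows of Aqp1, Blvrb and Tfrc held neither. CCNCNCCC, the letters of a CACC box, was searched on both strands and counted with overlaps. It had 3 matches in the Aqp1 window, 6 in 1 of the 2 Blvrb windows, 5 and 3 in the 2 overlapping Tfrc windows and 4 in the Hemgn window. It occurs in 49.5% of windows. These matches are letters in a window and show nothing about binding.

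The 9 genes lie on 7 chromosomes in mm10. Slc4a1 spans 102348824 to 102366203 on chromosome 11, Rhag 40811126 to 40840754 on chromosome 17, Aqp1 55336432 to 55348555 on chromosome 6, Tfrc 32608920 to 32632794 on chromosome 16 and Blvrb 27447978 to 27466144 on chromosome 7. Ermap (119175457 to 119190011) and Hemgn (46393989 to 46413506) are both on chromosome 4, and Car1 (14766216 to 14808368) and Car2 (14886273 to 14900770) are neighbours on chromosome 3. All 9 are annotated as protein coding and have the same start and end in GENCODE M21. Car1 alone overlaps another gene of the table, Gm16399 on the same strand, which held 72 counts in the 12 libraries together.

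Per length of transcript, the carbonic anhydrases were the most abundant of the 9. The median over 12 libraries was 1126 CPM per kilobase for Car2 and 1082 for Car1, followed by 606 for Aqp1, 297 for Slc4a1, 165 for Tfrc, 162 for Blvrb, 141 for Rhag, 140 for Ermap and 121 for Hemgn. Not every neighbour in that order was apart. Car1, Aqp1, Slc4a1 and Tfrc kept their order in 12 of 12 libraries. Car2 was above Car1 in 8 of 12, Tfrc above Blvrb in 7, Blvrb above Rhag in 9, Rhag above Ermap in 5 and Ermap above Hemgn in 10, so these neighbours changed places. By CPM, the 9 genes ranked from 15 (Car2) to 479 (Hemgn) among the 15003 genes tested.

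None of the 9 genes passed the test in any of 7 comparisons (edgeR quasi-likelihood test with Benjamini-Hochberg adjustment over 15003 genes, adjusted p under 0.05). Of all genes tested, 0% passed for RH against WT under vehicle, 0.00667% under metformin, 0% for metformin against vehicle in RH, 0% in WT, 0% for the difference between these metformin effects, 0.00667% for the mean genotype effect and 0% for the mean metformin effect. Unadjusted p-values under 0.05 were also found for 0 of the 9 in each comparison, against 2.03%, 5.78%, 2.43%, 4.03%, 6.21%, 2.65% and 1.63% of all genes in the same order. DESeq2 called 0 of the 9 as well and gave 1 of them, Car1 for the mean genotype effect, an unadjusted p of 0.0458. Other runs of edgeR also gave unadjusted p-values under 0.05. For that effect Car1 had 0.0424 with a term for the column number in place of the round, and 0.0475 without mitochondrial genes. For metformin in WT, Slc4a1 had 0.0346 with no filter and 0.00711 without WT MET 3. These are examples, and no run called any of the 9.

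**Figure D1:**
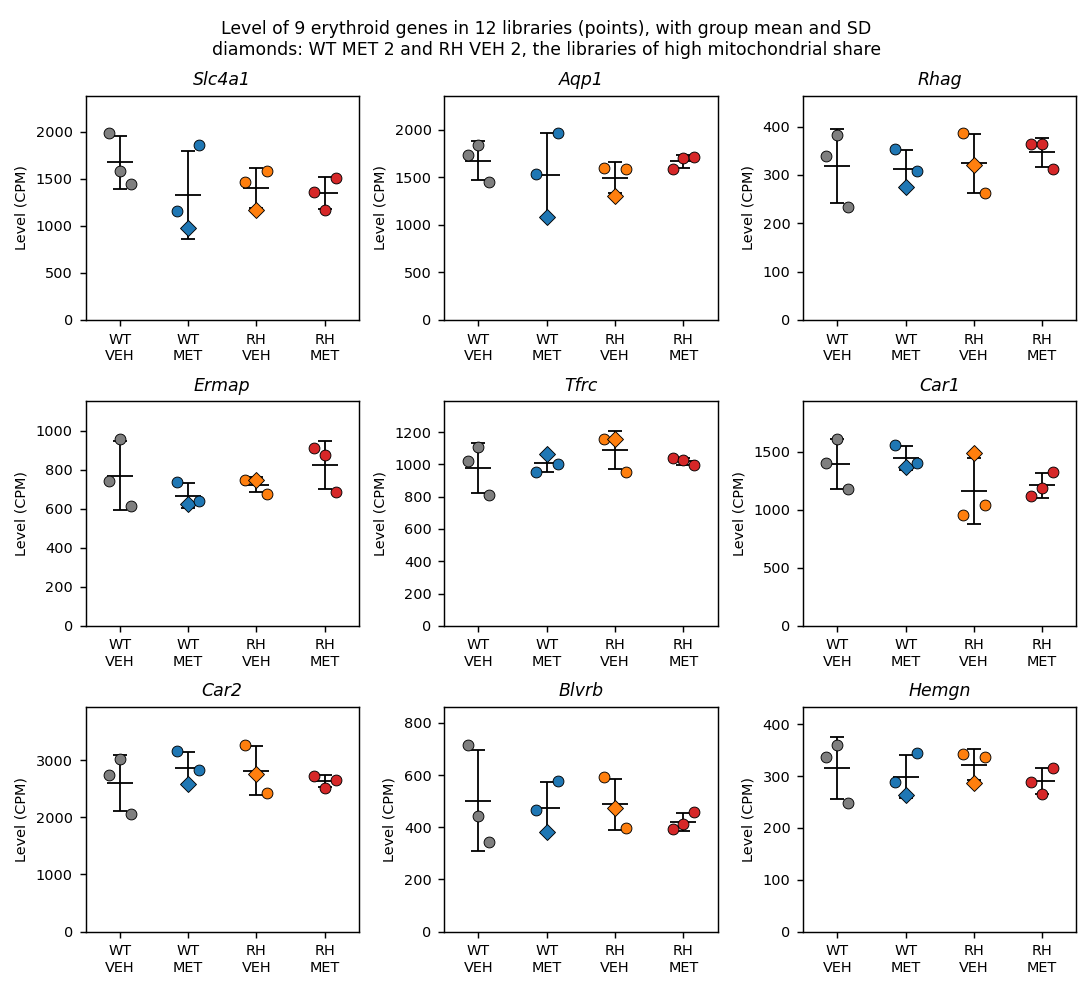
Level of each of the 9 genes in CPM (y axes, linear and starting at 0) in the 12 libraries by group (x axes). Points are libraries, diamonds are WT MET 2 and RH VEH 2, and the black bar and whiskers are the group mean and SD of 3 libraries. In 8 of the 9 panels the points of every pair of groups that differ in genotype or treatment alone overlap; in Car1 the 3 RH MET libraries (1122 to 1328 CPM) lie below the 3 WT MET libraries (1373 to 1563 CPM).

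The 95% intervals give a range for each change, measured against the spread between libraries, which may be technical. They do not bound a change between animals, and they are not adjusted for the number of genes and comparisons. Over the 9 genes, the 95% intervals of the fold ran from 0.581 to 1.49 for RH against WT under vehicle and from 0.587 to 1.45 under metformin. They ran from 0.582 to 1.47 for metformin against vehicle in RH and from 0.549 to 1.48 in WT. For the mean genotype effect, which uses all 12 libraries, the limits were 0.688 and 1.25, and for the mean metformin effect 0.684 and 1.26. The ratio of the RH to the WT metformin effect was the least certain, at 0.481 to 2.06. A 2-fold change in either direction lay outside the interval of every one of the 9 transcripts in each of the 4 single-group comparisons. These comparisons share libraries in pairs, so their signs are not independent of each other.

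**Figure D2:**
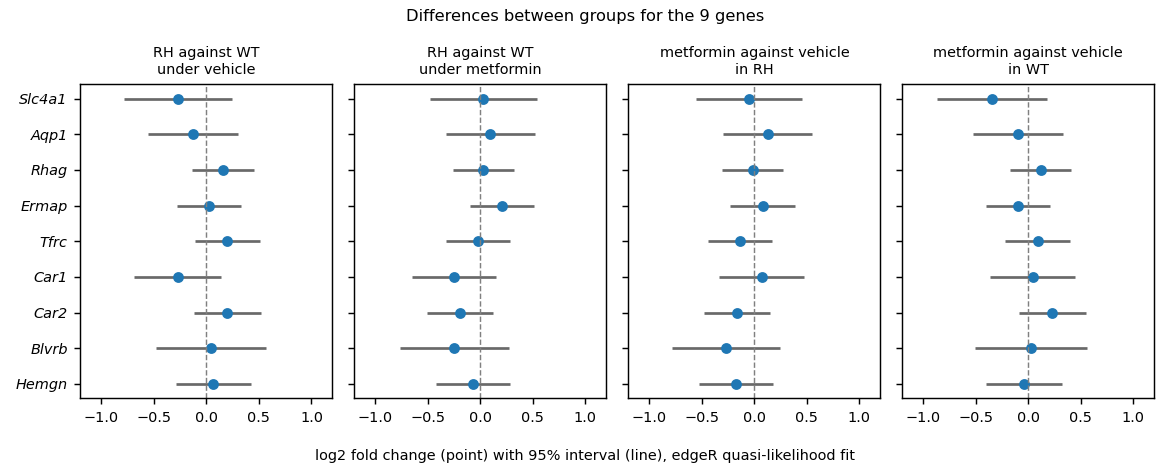
Log2 fold change (x axis; point) with its 95% interval (line) for the 9 genes (y axis) in the 4 comparisons between single groups, from the edgeR quasi-likelihood fit. Every interval includes 0, and all 36 lie within the limits of 0.549-fold to 1.49-fold.

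Among the membrane proteins, Slc4a1 encodes band 3, the chloride and bicarbonate exchanger that also anchors the membrane skeleton. Slc4a1 stood at 1987, 1588 and 1446 CPM in WT VEH 1, 2 and 3, and at 1161, 974 and 1859 in WT MET. In RH VEH it stood at 1463, 1165 and 1579, and in RH MET at 1359.5, 1170.1 and 1508. WT VEH 1 was the highest library and WT MET 2 the lowest, and WT MET 3 stood with the vehicle libraries, so that WT MET spanned nearly the whole range. The WT means were 1674 ± 281 (SD, n = 3) under vehicle and 1332 ± 467 under metformin, and the RH means 1402 ± 214 and 1346 ± 169. Metformin against vehicle in WT gave a log2 fold change of −0.35 ± 0.240 (SE), with an adjusted p of 0.876 (edgeR). It was −0.21 with both libraries of high mitochondrial share left out and −0.65 without WT MET 3, so single libraries set its size. In RH the same contrast was −0.05 ± 0.233.

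Aqp1 encodes aquaporin 1, the water channel of the red cell membrane. Its levels were 1736, 1842 and 1453 CPM in WT VEH, 1534, 1086 and 1967 in WT MET, 1594, 1308 and 1588 in RH VEH, and 1584, 1703 and 1716 in RH MET. The lowest library of all was WT MET 2 and the next was RH VEH 2, both below the 1453 to 1967 CPM of the other 10. Slc4a1 had its lowest value in WT MET 2 too. Set against the other 4 libraries of round 2, the mean of these 2 libraries differed by −0.58 on the log2 scale for Slc4a1, by −0.49 for Aqp1 and by −0.16 to 0.24 for the other 7 genes. The median of this difference over all genes tested was −0.01. The part of the mitochondrial share in these low values was not tested. Across groups, Aqp1 differed by log2 values of −0.13 to 0.13 in the 4 single-group comparisons.

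Rhag encodes the Rh-associated glycoprotein, which holds the Rh complex in the membrane and conducts ammonia. It stood at 339, 383 and 235 CPM in WT VEH, 354, 275 and 309 in WT MET, 387, 322 and 263 in RH VEH, and 364, 364 and 313 in RH MET. The highest libraries of the 4 groups stood between 354 and 387 CPM, and the lowest value was in WT VEH 3. RH against WT gave log2 fold changes of 0.16 ± 0.135 (SE) under vehicle and 0.03 ± 0.134 under metformin.

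Ermap encodes an erythroid membrane protein of the immunoglobulin superfamily that carries the Scianna blood group. Its 12 levels were 741, 958 and 612 CPM in WT VEH, 739.8, 625 and 638 in WT MET, 745, 749 and 678 in RH VEH, and 913, 877.9 and 684 in RH MET. WT VEH 2, RH MET 1 and RH MET 2 were the 3 high libraries. All 3 belong to round 1. RH against WT under metformin was the largest of its single-group differences, at 0.20 ± 0.141 (SE) on the log2 scale and an adjusted p of 0.742 (edgeR).

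Tfrc encodes the transferrin receptor, through which erythroid precursors and other dividing cells take up iron. It was the steadiest of the 9, with a ratio of 1.43 between the highest and the lowest library. Tfrc stood at 1019, 1106 and 808 CPM in WT VEH, 954, 1062 and 1005 in WT MET, 1158, 1157 and 951 in RH VEH, and 1037, 1026 and 994 in RH MET. Its coefficient of variation over the 12 libraries was 9.43%, and 8.56% of the 479 genes at or above the level of the lowest of the 9 varied less. RH against WT under vehicle gave 0.20 ± 0.142 (SE) on the log2 scale, the largest of its single-group differences, and −0.02 ± 0.142 under metformin.

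Among the enzymes, Car1 and Car2 encode the cytosolic carbonic anhydrases of red cells, of which CA2 is the faster enzyme. Car1 was the gene of the 9 nearest to a difference between genotypes. Its levels were 1401, 1612 and 1178 CPM in WT VEH, 1563, 1373 and 1400.1 in WT MET, 955, 1488 and 1042 in RH VEH, and 1122, 1186 and 1328 in RH MET. All 3 RH MET libraries lay below all 3 WT MET libraries, which held for no other gene of the 9 in any of the 4 single-group comparisons. Of all genes tested, 8.94% had RH MET wholly below WT MET, and 16.9% did not overlap in either direction. In the other single-group comparisons 0 of the 9 genes stood apart, against 5.95% of all genes for RH against WT under vehicle, 6.92% for metformin in RH and 9.38% for metformin in WT. Under vehicle the groups overlapped, because RH VEH 2 stood at 1488 CPM while RH VEH 1 and 3 were the lowest 2 libraries of all.

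Car1 had log2 fold changes for RH against WT of −0.28 ± 0.190 (SE) under vehicle and −0.25 ± 0.184 under metformin. As a mean over both treatments the value was −0.26 ± 0.128, a fold of 0.834 (95% interval 0.688 to 1.01), with an unadjusted p of 0.0619 and an adjusted p of 0.99993 (edgeR). The interval includes no change. With WT MET 2 and RH VEH 2 left out, the mean genotype value was −0.38, with an unadjusted p of 0.00534 and an adjusted p of 0.795. Round 1 alone gave −0.55 and round 2 alone 0.011. Round 1 holds 1 library each of WT MET and RH VEH and round 2 holds 1 each of WT VEH and RH MET, and the difference between rounds was not tested. Without RH VEH 1 the value under vehicle was −0.08 in place of −0.28. Metformin against vehicle gave 0.07 ± 0.187 in RH and 0.04 ± 0.186 in WT.

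Car2 did not share this pattern. It stood at 2733, 3013 and 2061 CPM in WT VEH, 3151, 2586 and 2831 in WT MET, 3268, 2753 and 2416 in RH VEH, and 2721, 2511 and 2654 in RH MET. RH VEH 1, the lowest library for Car1, was the highest for Car2. The mean genotype effect on Car2 was 0.0032 ± 0.0997 (SE) on the log2 scale. The metformin effect was 0.23 ± 0.146 in WT and −0.17 ± 0.144 in RH. The difference of these effects was −0.39 ± 0.211, with an unadjusted p of 0.0853 and an adjusted p of 0.648 (edgeR), and no group stood apart from another.

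The ratio of Car1 to Car2 counts compares both genes within a library and needs no scaling between libraries. It was 0.513, 0.535 and 0.571 in WT VEH 1, 2 and 3, 0.496, 0.531 and 0.495 in WT MET, 0.292, 0.541 and 0.431 in RH VEH, and 0.412, 0.472 and 0.500 in RH MET. The 6 WT libraries lay between 0.495 and 0.571. The RH libraries ranged from 0.292 to 0.541, with 4 of 6 below every WT library; the exceptions were RH VEH 2, one of those with a high mitochondrial share, and RH MET 3. The ratio was examined after the levels were seen and is a description without a test. Mean ratios were 0.540 ± 0.0296 (SD, n = 3) under vehicle and 0.507 ± 0.0204 under metformin in WT, and 0.421 ± 0.125 and 0.462 ± 0.0450 in RH.

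**Figure D3:**
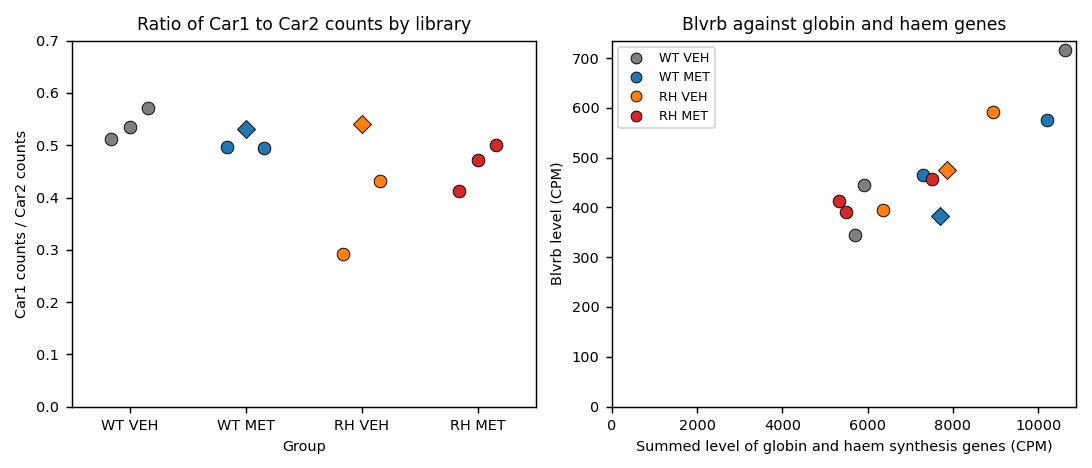
Left, ratio of Car1 to Car2 counts (y axis, linear from 0) in each library by group (x axis). Right, level of Blvrb in CPM (y axis) against the summed level of 12 globin and haem synthesis genes in CPM (x axis), 1 point per library coloured by group; diamonds are WT MET 2 and RH VEH 2 in both panels. RH VEH 1 has the lowest ratio (0.292), and Blvrb is high where the summed level is high (716 CPM at 10634 CPM in WT VEH 1).

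Car1 and Car2 lie in a cluster of carbonic anhydrase genes on chromosome 3 that spans 259044 bases and also holds Car13 and Car3. Car1 is on the minus strand and the other 3 are on the plus strand, and 77904 bases separate the annotated end of Car1 from the start of Car2. Car13 and Car3, both cytosolic isoforms, were at a mean of 8.30 and 5.98 CPM. Car3 had WT means of 6.34 ± 2.53 CPM (SD, n = 3) under vehicle and 8.85 ± 1.33 under metformin, and RH means of 3.55 ± 2.63 and 5.20 ± 0.785. Its mean genotype effect was −0.79 ± 0.299 (SE) on the log2 scale, with an unadjusted p of 0.0214 and an adjusted p of 0.99993 (edgeR). That p was the smallest of the 7 tested carbonic anhydrases outside Car1 and Car2. Of these 7, 5 were higher and 2 lower for the same effect (median 0.17), with the same counts without WT MET 2 and RH VEH 2 (0.15). Car3 rested on few counts, with 12 in RH VEH 2. Over the 12 libraries Car1 had a Pearson r of 0.13 (Spearman rho = 0.11) with Car3 and −0.13 (rho = 0.07) with Car13, as descriptions over libraries that share the scaling. Over the 10 libraries of low mitochondrial share r was 0.50 with Car3 and 0.16 with Car13.

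Blvrb encodes biliverdin reductase B, a flavin reductase of red cells. It varied most of the 9, with a ratio of 2.08 between the highest and the lowest library. Blvrb stood at 716, 444 and 344 CPM in WT VEH, 466, 383 and 576 in WT MET, 591, 475 and 396 in RH VEH, and 391, 414 and 457 in RH MET. WT VEH held both its highest and its lowest library, so the spread within that group was as wide as the whole range. Metformin against vehicle in RH gave −0.27 ± 0.237 (SE) on the log2 scale and RH against WT under metformin −0.25 ± 0.239, with adjusted p of 0.932 and 0.787 (edgeR).

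The level of Blvrb followed that of the haemoglobin programme across libraries. With the mean of 12 globin and haem synthesis genes, among them Hbb-bs, Hba-a1 and Alas2, its Pearson r was 0.94 and its Spearman rho 0.90 over the 12 libraries. Over the 10 libraries of low mitochondrial share they were 0.98 and 0.94. The r of the other 8 genes with the same list ran from −0.19 (Ermap) to 0.59 (Hemgn). Blvrb was not tied to this list alone. Over the 12 libraries its r was 0.93 with the mean of 12 genes for haem breakdown and red cell metabolism. With the proliferation genes it was 0.82 and with the erythroid transcription factors 0.78. These are descriptions over 12 libraries that share depth and scaling. None of the 12 globin and haem genes passed the test in any comparison. For RH against WT under metformin 2 of them were higher and 10 lower, with a median log2 difference of −0.28 beside −0.02 over all genes, and for Hba-a1 the value was −0.83 ± 0.355 (SE, adjusted p of 0.738, edgeR).

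Hemgn encodes hemogen, a nuclear protein of haematopoietic cells. Its levels were 337, 361 and 248 CPM in WT VEH, 288, 264 and 345 in WT MET, 344, 287 and 336 in RH VEH, and 289, 266 and 316 in RH MET. No group stood apart. Metformin against vehicle in RH gave −0.17 ± 0.162 (SE) on the log2 scale, the largest of its single-group differences.

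The 9 genes did not vary as 1 unit. Of the 36 pairs, 32 had a positive Pearson r of log2 CPM over the 12 libraries and 4 a negative one, with a median of 0.41. Rhag followed Car2 (r = 0.81), Ermap (0.80) and Tfrc (0.68). Slc4a1 followed Aqp1 (0.78) and Hemgn (0.72), but not Rhag (0.04), Ermap (−0.03) or Car2 (0.04). Over the 12 libraries Car1 followed none of the others, with r from −0.07 to 0.24. Over the 10 libraries of low mitochondrial share, the r of Slc4a1 and Aqp1 was 0.55, that of Rhag and Ermap 0.78, that of Rhag and Tfrc 0.87 and that of Rhag and Car2 0.83. Aqp1 and Tfrc, at −0.05 over 12 libraries, were at 0.50 over the 10, and Aqp1 and Car1, at 0.01 over 12, were at 0.47. All are descriptions without a test.

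The genes also differed in the lists that they followed, again as r over the 12 libraries with the mean of a list. Rhag (0.86) and Tfrc (0.84) followed the 12 other red cell carriers and channels, and Car2 (0.79) and Ermap (0.64) did so too, while Aqp1 (−0.00) and Slc4a1 (−0.30) did not. Over the 10 libraries of low mitochondrial share the values were 0.98 for Rhag, 0.81 for Tfrc, 0.81 for Car2, 0.76 for Ermap, 0.38 for Aqp1 and −0.23 for Slc4a1. The membrane skeleton list was followed by all of the genes but Car1 (0.21). These values were 0.79 for Hemgn and Rhag, 0.73 for Blvrb, 0.68 for Car2 and Aqp1, 0.63 for Ermap, 0.58 for Slc4a1 and 0.57 for Tfrc. Over the 10 libraries Tfrc was the highest at 0.84, and Slc4a1 stood at 0.45 and Car1 at 0.35. With the proliferation genes, r over the 12 libraries ran from 0.18 (Car1) to 0.82 (Blvrb). With the granulocyte genes, over the 10 libraries, it was negative for all 9, from −0.10 (Slc4a1) to −0.74 (Car2), as shares of 1 library total. Over all 12 libraries it was positive for Aqp1 (0.64), Slc4a1 (0.47) and Hemgn (0.05), so that sign rests on leaving out WT MET 2 and RH VEH 2.

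The rounds differed in part of this set. Rhag had a median of 364 CPM in the 6 libraries of round 1 and 286 in the 4 libraries of round 2 with a low mitochondrial share, Ermap 811 and 658, and Car2 2873 and 2535. For Aqp1 the medians were 1649 and 1652, and for Hemgn 313 and 326. The fit holds a round term for such gaps.

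**Figure D4:**
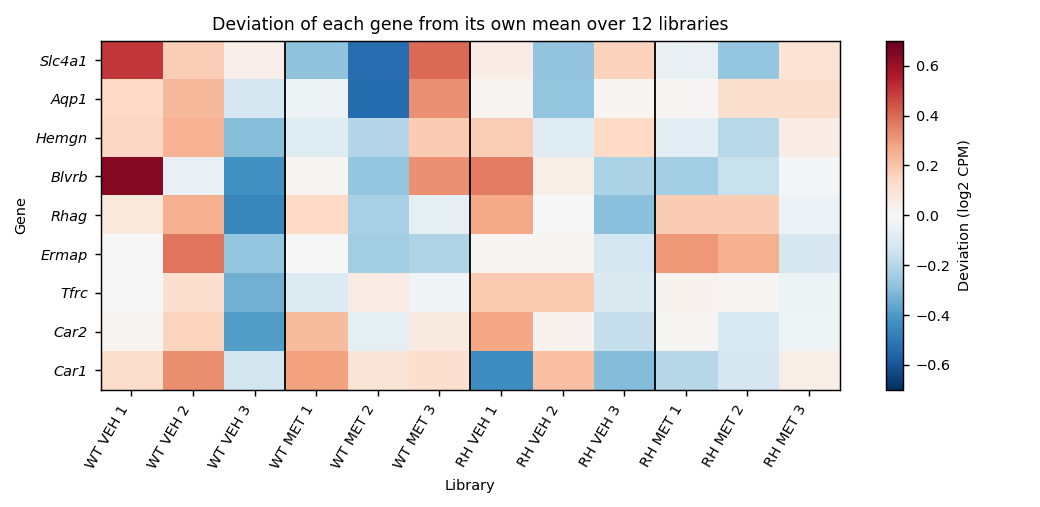
Deviation of each gene (rows) from its own mean over the 12 libraries (columns, by group; vertical lines part the groups), in log2 CPM, red above and blue below the mean. Slc4a1 and Aqp1 are low in WT MET 2 (−0.53 and −0.54), WT VEH 3 is low for most rows, and Car1 is low (−0.43) in RH VEH 1, where Car2 is high (0.27).

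WT VEH 3 had the lowest level of 6 of the 9 genes: Rhag, Ermap, Tfrc, Car2, Blvrb and Hemgn. WT MET 2 had the lowest Slc4a1 and Aqp1, and RH VEH 1 the lowest Car1. WT VEH 3 also held the highest summed level of the 16 granulocyte genes, among them Elane, Mpo, S100a8 and S100a9, at 8072 CPM against 1547 to 7675 CPM in the other libraries. Its proliferation list, which holds Mki67, Top2a and Pcna, was the lowest at 4811 CPM against 5117 to 6492 CPM. The part of these in the low erythroid values was not tested. In bulk libraries, fewer cells of a type and less RNA per cell cannot be told apart.

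Markers of other cell types shifted together in some comparisons, by the fitted log2 fold change of each gene, although none of their genes passed the test. The medians given are over the genes of a list. Of 16 granulocyte genes, 16 were higher for RH against WT under metformin (median 1.10 on the log2 scale) and 16 for metformin against vehicle in RH (1.28), while 15 were lower for RH against WT under vehicle (−0.70) and 16 for metformin in WT (−0.57). Without WT MET 2 and RH VEH 2 these medians were 0.74, 0.94, −0.35 and −0.20. The summed granulocyte level was 3735 to 8072 CPM in WT VEH, 1547 to 6180 in WT MET, 1649 to 5438 in RH VEH and 4881 to 7675 in RH MET, and the groups overlapped with and without those libraries.

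Of 15 T and NK cell genes, 15 were lower for RH against WT under metformin (median −1.24, and −1.11 without the libraries of high mitochondrial share) and 15 for metformin in RH (−1.15 and −1.33). Their summed level was 28.9 to 66.1 CPM in RH MET and 61.1 to 123 CPM in the other groups. Of 11 megakaryocyte genes, 10 were lower for RH against WT under metformin (median −0.70) and 10 higher for metformin in WT (0.97), with −0.26 and 0.45 without those libraries, which held the highest sums, 2018 and 1571 CPM. For RH against WT under metformin and under vehicle and for metformin in RH and in WT, the medians of the 9 erythroid genes were −0.02, 0.05, −0.05 and 0.03, and without both libraries −0.12, 0.01, −0.08 and 0.04. The part of RNA of other cell types in the erythroid levels was not tested.

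Genes of the same pathways outside the 9 also gave no call. The lists were written with earlier results of these data known. Of the membrane skeleton and blood group list, 17 of 18 genes were tested, among them Sptb, which encodes a chain of the skeleton, and Ank1, an ankyrin that ties the skeleton to band 3. Their median log2 difference was −0.03 for RH against WT under vehicle, 0.03 under metformin, −0.06 for metformin in RH and −0.12 in WT, beside 0.00, −0.02, −0.01 and 0.01 over all genes. Without WT MET 2 and RH VEH 2 they were −0.04, −0.04, −0.06 and −0.04. For metformin in WT, Sptb stood at −0.33 ± 0.160 (SE) and Ank1 at −0.26 ± 0.141, next to the −0.35 of their partner Slc4a1, each with an adjusted p of 0.876 (edgeR). Sptb and Ank1 had the smallest p of the list there, and of the 17 genes 6 were higher and 11 lower. The groups of Slc4a1 overlapped.

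Among 12 other red cell carriers and channels, 10 were higher and 2 lower for RH against WT under vehicle (median 0.10), and 11 higher and 1 lower for metformin in WT (median 0.14). Under the opposite conditions the counts turned: 4 higher and 8 lower for RH against WT under metformin (−0.07) and the same for metformin in RH (−0.07). With both libraries of high mitochondrial share left out, 7 were higher and 5 lower, 9 higher and 3 lower, 4 higher and 8 lower, and 8 higher and 4 lower in the same order (medians 0.04, 0.04, −0.03 and 0.04). None passed the test. Piezo1, the mechanically gated channel of the red cell membrane, was the 1 lower gene for metformin in WT, at −0.62 ± 0.255 (SE) (adjusted p of 0.876, edgeR), and stood at 0.69 ± 0.260 for RH against WT under metformin (adjusted p of 0.738).

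The iron list, with the second transferrin receptor Tfr2, the mitochondrial importer Slc25a37 and the ferritins Fth1 and Ftl1, had 13 tested genes. Their medians were 0.04 for RH against WT under vehicle, 0.12 under metformin, 0.00 for metformin in RH and −0.04 in WT. Ftl1, the ferritin light chain, stood at −0.36 ± 0.194 (SE) in both comparisons that involve RH MET, with adjusted p of 0.738 and 0.932 (edgeR). These comparisons share the RH MET libraries. Tfrc in them was −0.02 and −0.13.

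Of 12 genes for haem breakdown and red cell metabolism, which are the neighbours of Blvrb, 3 were higher and 9 lower for RH against WT under metformin (median −0.27), and 4 higher and 8 lower for metformin in RH (−0.22). Under vehicle 7 were higher and 5 lower for RH against WT (0.04). Ubb, a polyubiquitin gene, had the smallest p of the list, at −0.46 ± 0.118 (SE) for RH against WT under metformin, with an unadjusted p of 0.00191 and an adjusted p of 0.738 (edgeR). Its RH MET levels of 663 to 679.8 CPM lay below the 810.4 to 993 CPM of WT MET. Gpx1, a glutathione peroxidase, stood at −0.48 ± 0.186 and Pklr, the red cell pyruvate kinase, at 0.41 ± 0.151 in the same comparison, both with an adjusted p of 0.738.

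The carbonic anhydrase family outside Car1 and Car2 was nearly silent in these cells. Of 14 genes, 7 passed the filter, and their summed level with the rest was 13.1 to 26.1 CPM per library. Car4, Car6 and Car10 held 0 counts in every library. The erythroid transcription factor list had 15 tested genes, with group means of 253 to 303 CPM for Gata1. Of these 15, 2 were higher and 13 lower for RH against WT under metformin (median −0.12), and 9 higher and 6 lower under vehicle (0.07). Without WT MET 2 and RH VEH 2, 3 were higher and 12 lower under metformin (−0.11), and 7 higher and 8 lower under vehicle (−0.01). In the fit of all 12 libraries, Gata1 stood at −0.36 ± 0.181 (SE) for metformin in RH, with an adjusted p of 0.932 (edgeR). Klf1 stood at group means of 291 to 335 CPM.

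The genes outside the 9 whose pattern was most like the mean of the 9 standardised log2 levels were ranked by Pearson r over the 12 libraries among the 11562 genes whose log2 CPM averaged 1 or more. The 10 highest were Riok1 (r = 0.95), Gpsm2 (0.94), Esd (0.92), Cdca3 (0.91), Nudt4 (0.91), Chchd3 (0.89), Orc5 (0.89), Pi4k2b (0.89), Stom (0.89) and Acp1 (0.88). The median r over all 11562 was 0.05. Stom, which encodes the red cell membrane protein stomatin, was the one of the 10 on the membrane skeleton list, at group means of 400 to 459 CPM. Riok1, an atypical kinase of ribosome assembly, had close group means of 54.6 to 56.7 CPM. Its single libraries ran from 47.5 CPM in WT MET 2 to 62.4 CPM in WT VEH 2.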

How the data were processed

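RNA was sequenced as 150-base paired reads, per the labels' protocols. The authors deposited raw counts per gene; STAR 2.5, HTSeq 0.6.1 and mm10 are named in the submitters' processing notes, and the sources used here do not give the handling of strand or of reads with several map positions. In a second table, 2 columns matched no sample and were not used. Library numbers are those of the columns; for some columns the labels give the group and not the exact sample. Counts of 15003 of 54532 genes (filterByExpr) were fitted with edgeR 4.0.16 in R 4.3.3: TMM, robust quasi-likelihood, a mean per group and a round term over all 12 libraries, Benjamini-Hochberg adjustment per comparison. DESeq2 1.42.0 was an alternative. Levels are TMM-scaled CPM; correlations used log2 CPM with a prior count of 2. The 9 genes and all lists were chosen with earlier results of these data known; all 9 are named in every library, and of other lists up to 4 genes of smallest p. On simulated counts for RH against WT under vehicle (14604 genes), the fit recovered 0 of 67 genes changed 1.5-fold, 22 of 67 changed 2-fold and 61 of 66 changed 4-fold, with 5 false calls. The simulation gave every gene the same spread, with no gap between rounds and no library of high mitochondrial share. Its rates therefore do not describe the 9 genes. No replicate pair agreed within sampling noise. Depth was 13359583 to 21938003 counts.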

Additional observations from a re-analysis of the deposited data

How the results depend on the processing

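The number of the 9 genes called stayed at 0 in all 7 comparisons under every alternative run: RLE and upper quartile factors, no filter, DESeq2, no round term, a replicate block, mitochondrial genes left out, WT MET 2 and RH VEH 2 left out, only the groups compared (run for the 4 single-group comparisons), each library left out in turn, and each round alone. Of 726 values recomputed, 711 counted as unchanged: calls that stayed at 0, single-gene fold changes that kept their sign, and medians that moved by less than 0.145. That limit is the pooled within-group SD of the median log2 CPM of the 9. In the single-group comparisons only genes with a change larger than its SE were followed. Of the rest, 6 single-gene values changed sign and 9 medians moved further. Sign changes of medians were not counted. For RH against WT under metformin the median ran from −0.126 to 0.073 with each library left out in turn. In each round alone 2 of the 4 groups hold 1 library, which is assumed to vary like the others. Round 2 alone turned Car1 for RH against WT under vehicle to 0.064 and for the mean genotype effect to 0.011, and turned metformin in RH to 0.062 for Car2, 0.095 for Blvrb and 0.039 for Hemgn. With each library left out in turn, the difference of metformin effects on Blvrb ran from −0.60 to 0.024, the last without WT VEH 3. The cause was not tested. Without WT VEH 3 the median of the 9 was −0.15 for RH against WT under vehicle, −0.21 for metformin in WT and 0.13 for the difference of these effects. Over all genes, the calls per comparison were 0 to 1 in the reported fit, 0 to 22 with DESeq2 and 63 to 431 with no filter, where 27530 genes were tested.

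The column numbers are not treated as pairs, because not every same-numbered pair correlated above 0.1, a bar that was a choice. Same-numbered libraries of different groups had deviations correlated at −0.01 to 0.49 (18 pairs, median 0.15). Differently numbered ones stood at −0.40 to 0.20 (36 pairs, median −0.15), and 10 of 12 libraries correlated best with their own number. Same-numbered libraries were thus more alike by the median, and whether the numbers mark pairs was not tested. With the replicate block in place of the round term, 0 of the 9 genes were called in every comparison, the calls over all genes were 0 to 2, and the median of the 9 for the difference of metformin effects was 0.02 in place of −0.13. The unadjusted p of Car1 for the mean genotype effect was then 0.0424 in place of 0.0619 (edgeR).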
